A study of Mus musculus with 6 samples.

Results

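This account covers 36 genes of potassium channels and their subunits, taken from the voltage-gated (Kv), calcium-activated (KCa), sodium-activated and tandem-pore (K2P) families. The Kv4 (Kcnd), Kcne and inward rectifier (Kcnj) genes were left to a comparison at the end. For each gene the brightest probe set annotated to that gene alone was used, judged by its mean across the 6 arrays. That gave values for 34 of the 36 genes, out of 18193 genes tested in all; Kcnb2 and Kcnk9 were not analysed here. The hippocampus of adult male mice was measured in 3 mice of L26 and 3 wild type littermates, 1 Affymetrix array per sample, without a stimulus. L26 mice were homozygous for a daDREAM transgene, all 6 animals shared the C57B6xCBA background, and the design text calls the samples of a group independent biological replicates. L26 is a single line, so an effect of the transgene and one particular to this line cannot be told apart, and the promoter that drives the transgene is not given in the sources used here.

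Potassium channels let potassium leave a neuron and so hold its resting potential, end the action potential and space out firing. Kv channels open on depolarization, KCa channels couple calcium entry to hyperpolarization, and K2P channels carry a leak current at rest. Most are tetramers, or dimers in the case of K2P channels, and accessory or silent subunits change how fast and at which voltage the channel opens. In the hippocampus these genes set dendritic excitability, axonal conduction and the width of presynaptic spikes. DREAM, the product of Kcnip3, is a calcium-binding repressor that binds DNA elements with a GTCA core and also partners Kv4 channels, and daDREAM is a mutant form that goes on repressing when calcium rises. The comparison asks which of these transcripts differ at rest when daDREAM is present.

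Array medians were close but all slightly higher in L26, with 7.30 to 7.32 in L26 and 7.27 to 7.29 in wild type on the log2 scale of the deposited values. Counts with the arrays centred on their medians are given in the last section. Correlations across probe sets were 0.9971 to 0.9979 within groups and 0.9944 to 0.9958 between them. The chosen Kcnip3 probe set averaged 10.15 ± 0.06 in L26 and 10.32 ± 0.09 in wild type (SD, n = 3 each) and did not pass the test. Its other probe set, 1449129_a_at, had 9.17, 9.26 and 9.18 in L26, against 9.51, 9.64 and 9.41 in wild type. It fell by 0.32 (SE 0.07, adjusted p = 0.0393 at probe set level, limma). That call was lost when any array other than wild type replicate 3 was left out (adjusted p = 0.0812 to 0.141), a check added after the values had been seen. Whether either probe set covers the transgene is not known here. As a check for neuronal RNA, the neuronal gene Rbfox3 averaged 12.91 in L26 and 13.03 in wild type. Neurod6, a factor gene of pyramidal cells, averaged 12.30 in L26 and 12.06 in wild type. These levels do not test the dissection.

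The silent subunit genes Kcnf1 and Kcnv1 and the fast-inactivating Kv gene Kcnc4 fell in L26, and none of the 34 genes rose. The Kcnf1 and Kcnc4 calls each rest on 1 of 2 probe sets. Unlike the other calls, the Kcnc4 call did not hold under every alternative tried, as given below. The test was limma with Benjamini-Hochberg adjustment over all 18193 genes and a threshold of 0.05. The 3 calls are 8.82% of the 34 genes, where 2.57% of all genes fell, and the 0 increases stand beside 2.63% of all genes. The genes were chosen with earlier results of these data known, so this share and those below describe the list and test nothing. Differences were small: on the log2 scale they ran from -0.52 to 0.15 around a median of -0.09, against a median of 0.01 over all genes. A lower mean in L26 was found for 31 of 34 genes (46.9% of all genes). This count was taken on the brightest probe sets only and was 28 to 31 with 1 array left out. All L26 arrays lay below all wild type arrays for 13 of the 34 (11.0% of all genes) and above them for 2 (13.0% of all genes). At an unadjusted p under 0.05, 10 genes were lower (9.03% of all genes) and 1 was higher (11.3% of all genes). The mean over the 34 genes was 9.24 to 9.26 on the L26 arrays and 9.36 to 9.40 on the wild type arrays. Over all genes it was lower, 8.25 to 8.27 in L26 and 8.24 to 8.27 in wild type. These are bulk samples, in which fewer cells of a type and less RNA per cell cannot be told apart.

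**Figure D1:**
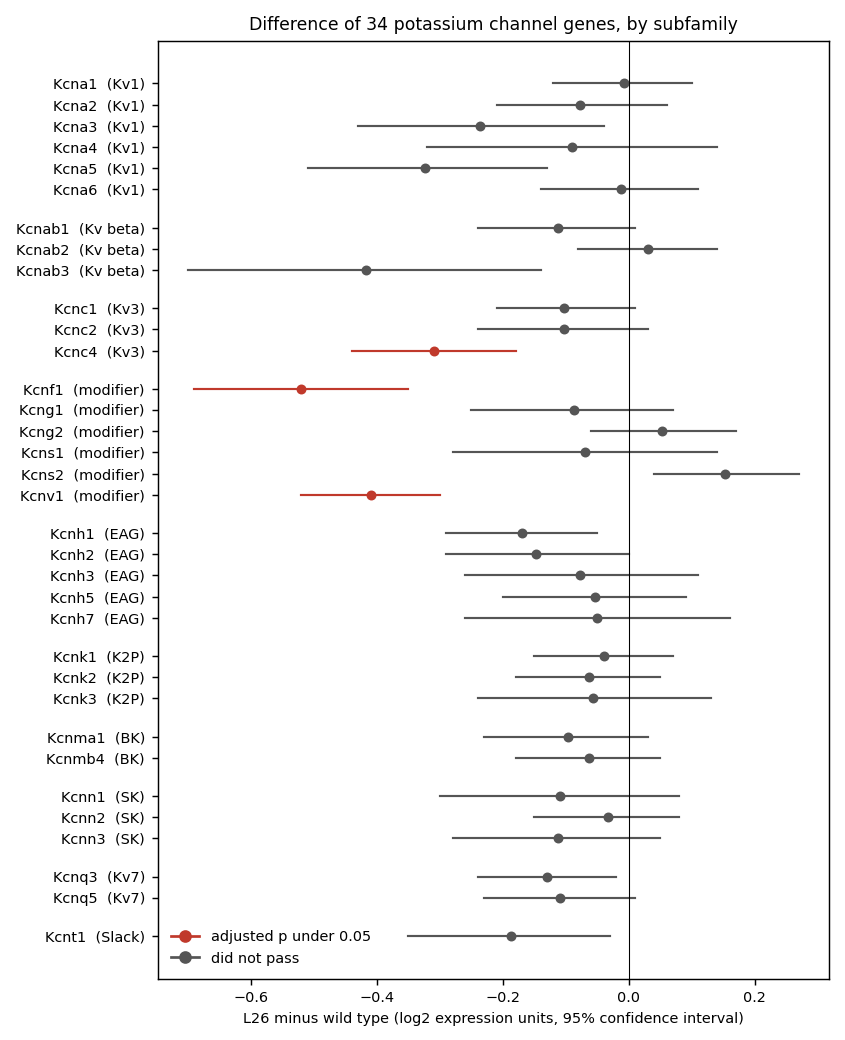
Difference between L26 and wild type (x axis, log2 expression units) for each of the 34 genes (rows, grouped by subfamily), with the 95% confidence interval from limma. Kcnf1, Kcnv1 and Kcnc4, in red, passed the adjusted p threshold of 0.05; most other points lie between -0.2 and 0, with intervals that include 0.

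Marker genes of other cells moved on the same arrays. Of 16 oligodendrocyte markers 12 rose and 0 fell, with a list mean of 10.96 to 11.18 in L26 and 10.71 to 10.81 in wild type. Of 17 vascular markers 9 rose and 0 fell (list mean 8.75 to 8.84 in L26 and 8.44 to 8.45 in wild type). Of 14 markers of cortex and subiculum, tissue that borders the hippocampus, 6 fell and 0 rose (9.82 to 9.86 in L26 and 10.05 to 10.09 in wild type). Of 14 interneuron markers Pvalb and Reln fell and 12 did not pass (10.31 to 10.35 in L26 and 10.38 to 10.40 in wild type). Of 12 pan-neuronal markers 0 passed and their median difference was -0.03, while 5 of 16 markers of hippocampal principal cells rose and 0 fell. Of 15 astrocyte markers S100b fell and 14 did not pass, and of 13 microglia markers 4 rose and P2ry12 fell. Of 13 choroid plexus and ependyma markers 2 rose and 1 fell, and of 12 thalamus and habenula markers 1 rose and 3 fell. The part of these cell types in the channel results was not tested.

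The modifier subunits held both of the calls that stayed past the threshold under every alternative tried. Kcnf1, Kcng1, Kcng2, Kcns1, Kcns2 and Kcnv1 encode silent subunits, which form no channel alone but join Kv2 subunits and change their gating. Of the 6 genes, 2 fell, 0 rose and 4 did not pass, with a subfamily median of -0.08 on the log2 scale.

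Kcnf1 had log2 levels of 8.37, 8.41 and 8.32 in L26, against 9.03, 8.90 and 8.73 in wild type. The L26 arrays were close together and all lay below the wild type arrays, which were more spread. The difference was -0.52 (SE 0.08), a 1.43-fold lower level in L26 (adjusted p = 0.00708, limma; 0.00163 to 0.0387 over the alternatives). Its other probe set, 1441300_at, had 8.01, 8.08 and 8.06 in L26 and 8.43, 8.11 and 8.13 in wild type, where the groups did not overlap but 1 wild type array carried most of the gap. Its difference was -0.17, without a call at probe set level (adjusted p = 0.334).

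Kcnv1 had 9.22, 9.31 and 9.28 in L26, against 9.69, 9.68 and 9.67 in wild type. The wild type arrays were nearly equal and the groups were well apart. The difference was -0.41 (SE 0.05), a 1.33-fold lower level in L26 (adjusted p = 0.0031, limma; 0.000537 to 0.0251 over the alternatives). A second probe set, 1453273_at, fell by 0.42 (adjusted p = 0.0245 at probe set level), with 9.11, 9.25 and 9.07 in L26 and 9.66, 9.62 and 9.40 in wild type. That call was lost without wild type replicate 1 or 2 or L26 replicate 1 or 3 (adjusted p = 0.0719 to 0.109). The third, 1429741_at, overlapped between the groups and had a difference of -0.06.

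Among the other silent subunits, Kcns2 averaged 9.56 ± 0.06 in L26 and 9.41 ± 0.02 in wild type (SD, n = 3 each), with all L26 arrays above all wild type arrays. Its difference of 0.15 was the highest of the 34 genes and did not pass (adjusted p = 0.136, limma). Kcng1 (-0.09), Kcng2 (0.05) and Kcns1 (-0.07) overlapped between the groups. The modifier genes therefore held the lowest and the highest of the 34 differences.

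**Figure D2:**
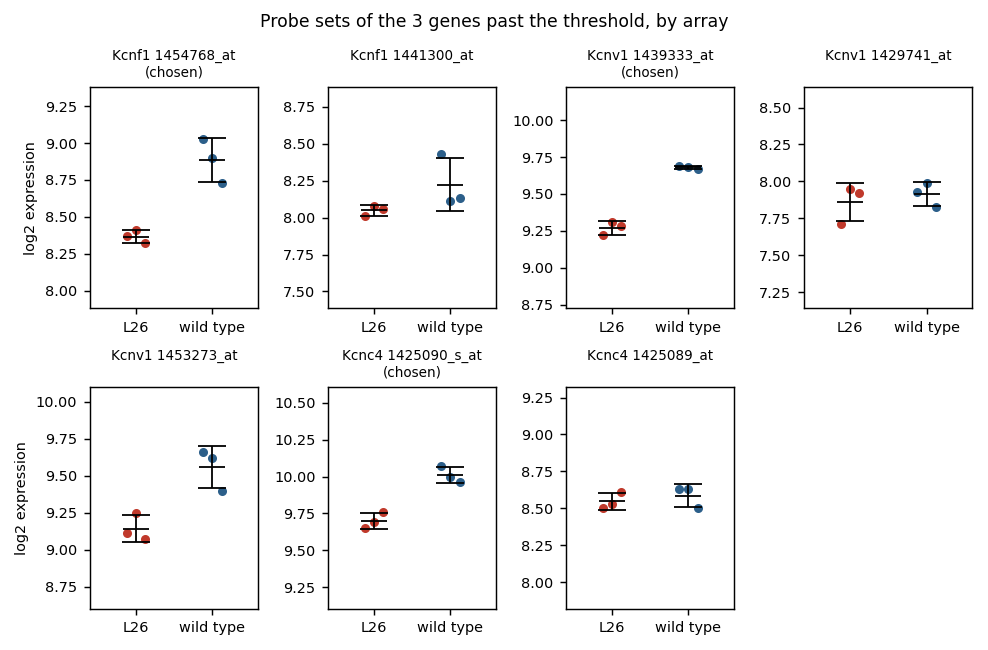
Log2 expression (y axis, a span of 1.5 units in every panel) by array for each probe set of Kcnf1, Kcnv1 and Kcnc4, L26 left and wild type right. Points are arrays, horizontal marks are means with SD bars (n = 3), and "chosen" marks the probe set with the highest mean. The groups are apart on the chosen sets, on Kcnv1 1453273_at and, narrowly, on Kcnf1 1441300_at. They overlap on Kcnv1 1429741_at and Kcnc4 1425089_at.

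The Kv3 genes encode channels that open at strongly depolarized voltages and close fast, which lets interneurons fire at high rates; Kcnc4 encodes a member that inactivates quickly and shapes spikes in axons. Kcnc4 had 9.65, 9.69 and 9.76 in L26, against 10.07, 10.00 and 9.96 in wild type. Every L26 array lay clearly below every wild type array. It fell by 0.31 (SE 0.06, adjusted p = 0.0159, limma), on 1425090_s_at, a probe set open to related transcripts. The other Kcnc4 probe set, 1425089_at, had 8.50, 8.53 and 8.61 in L26 and 8.63, 8.63 and 8.50 in wild type and overlapped, with a difference of -0.04. With probe sets of that kind removed the gene therefore had no call (adjusted p = 0.773). The call was also lost with the mean of all probe sets (adjusted p = 0.0988) and without L26 replicate 1 (adjusted p = 0.0514) or L26 replicate 2 (adjusted p = 0.0676). Kcnc1 and Kcnc2, both known from fast-spiking interneurons, each had a difference of -0.10 and did not pass.

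Sequences of Kcnf1 and Kcnc4, 2 of the 3 genes that fell, are shown because DREAM is a DNA-binding repressor. They come from RefSeq (GRCm38.p6), whose promoter table matched 23 of the 34 genes, Kcnf1 and Kcnc4 among them. Each run holds the 250 bases before the start that this table gives, which for Kcnc4 lies inside the annotated span of the gene, read in the direction of the gene on the minus strand. Capitals mark GTCA on either strand, so that TGAC is GTCA on the opposite one. The Kcnf1 stretch is chr12:17176889-17177138 and the Kcnc4 stretch is chr3:107458899-107459148.
Kcnf1: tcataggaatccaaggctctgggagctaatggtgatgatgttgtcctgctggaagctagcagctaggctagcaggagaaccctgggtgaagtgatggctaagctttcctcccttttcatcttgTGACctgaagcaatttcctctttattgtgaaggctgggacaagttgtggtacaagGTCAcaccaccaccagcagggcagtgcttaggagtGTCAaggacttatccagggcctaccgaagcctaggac
Kcnc4: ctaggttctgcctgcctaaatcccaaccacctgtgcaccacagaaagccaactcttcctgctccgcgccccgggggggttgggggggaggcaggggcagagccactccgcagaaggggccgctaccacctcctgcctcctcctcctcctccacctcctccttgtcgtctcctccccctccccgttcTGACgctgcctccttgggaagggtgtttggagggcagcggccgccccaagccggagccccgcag

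Kcnf1 held 3 copies of GTCA, beginning 127, 72 and 37 bases before the start, and Kcnc4 held 1, at 64 bases. So short a motif is common: 80.2% of all 32851 promoters held at least 1 copy in the same window. The same was true of 29 of the 35 promoters of the 23 matched genes (82.9%). Promoters with 3 copies also occurred among genes that did not pass, such as Kcna6 and Kcnh5. The AP-1 site TGANTCA, searched on both strands, stood in 1 of those 35 promoters, that of Kcnk2, against 6.75% of all promoters. The cAMP response element TGACGTCA, which contains GTCA on both strands, stood in 0 of the 35 and in 1.55% of all. A match describes letters only.

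None of the 6 Kv1 genes passed. Kv1 channels sit in axons and terminals, where they open near threshold and limit repetitive firing. Kcna5, better known from heart and vascular muscle, had 6.21, 6.14 and 5.93 in L26, against 6.52, 6.42 and 6.31 in wild type. The groups did not overlap, but the spread within each was a sizeable part of the gap. The difference was -0.32 (SE 0.08, adjusted p = 0.0622, limma). Kcna3, a channel also of lymphocytes and microglia, averaged 7.57 ± 0.09 in L26 and 7.81 ± 0.17 in wild type (SD, n = 3 each) and did not pass (adjusted p = 0.168). The axonal subunit genes Kcna1, Kcna2 and Kcna6 had differences of -0.007, -0.08 and -0.01, with overlapping groups. For Kcna1 the 95% interval of the difference, -0.12 to 0.10, leaves room for a small change only. The chosen probe set of Kcna4, an A-type channel gene, overlapped with a difference of -0.09, whereas on its other probe set, 1438613_at, all L26 arrays (8.20, 8.41 and 8.26) lay below all wild type arrays (8.61, 8.55 and 8.50). Its difference of -0.26 missed the threshold at probe set level (adjusted p = 0.0729).

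The cytoplasmic beta subunits attach to Kv1 channels, where the Kcnab1 product speeds inactivation and the Kcnab2 product aids transport into axons. Kcnab3 had 7.99, 8.25 and 8.09 in L26, against 8.46, 8.82 and 8.30 in wild type. The lowest wild type array lay just above the highest L26 array. Its difference of -0.42 had the highest standard error of the 34, 0.12, and did not pass (adjusted p = 0.0951, limma). Without wild type replicate 2 it was -0.27 (adjusted p = 0.167). The other Kcnab3 probe set, 1423950_at, overlapped, with a difference of -0.12 (adjusted p = 0.351 at probe set level). Kcnab1 averaged 11.64 ± 0.05 in L26 and 11.75 ± 0.05 in wild type without overlap (difference -0.11, adjusted p = 0.282), and on 1454043_a_at, its other probe set, the difference was -0.24 (adjusted p = 0.143). Kcnab2 averaged 11.92 in L26 and had 11.89 on all 3 wild type arrays, a difference of 0.03 that did not pass.

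The Kv7 genes Kcnq3 and Kcnq5 encode subunits of the M current, which muscarinic receptors close. Kcnq3 had 11.37, 11.33 and 11.36 in L26, against 11.44, 11.48 and 11.53 in wild type. All L26 arrays were lower, by a small margin (difference -0.13, SE 0.05, adjusted p = 0.19, limma). On its other probe set, 1458421_at, the groups overlapped and the difference was 0.12 (adjusted p = 0.335 at probe set level). Kcnq5 had 9.99, 9.96 and 9.89 in L26 and 10.09, 10.01 and 10.07 in wild type on the chosen probe set, again a narrow separation (difference -0.11, adjusted p = 0.292). A different Kcnq5 probe set, 1441071_at, went the other way, with 8.92, 8.83 and 9.35 in L26, against 8.39, 8.53 and 8.28 in wild type. It rose by 0.63 (SE 0.13, adjusted p = 0.0262 at probe set level), the largest difference in size among the 72 probe sets of these genes. The call was lost without wild type replicate 1 (adjusted p = 0.0716) or wild type replicate 3 (adjusted p = 0.0882). The third Kcnq5 probe set overlapped, with a difference of 0.05. Averaged over its probe sets Kcnq5 had 0.19 and did not pass (adjusted p = 0.0762), and the median of the 2 Kv7 genes then changed sign, to 0.09.

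The EAG family is voltage-gated too, with channels that activate slowly (Kcnh1 and Kcnh5), the ERG channels that recover fast from inactivation (Kcnh2 and Kcnh7) and the ELK channel gene Kcnh3. Kcnh1 had 9.45, 9.42 and 9.53 in L26, against 9.64, 9.61 and 9.66 in wild type. The groups were apart, and the difference of -0.17 (SE 0.05) did not pass (adjusted p = 0.106, limma). As with Kcnq5, a second probe set moved the opposite way: 1418414_at had 8.81, 8.81 and 8.80 in L26, against 8.46, 8.60 and 8.46 in wild type. It rose by 0.30 (SE 0.06, adjusted p = 0.0255 at probe set level). Leaving out any array other than wild type replicate 2 took that call away (adjusted p = 0.0641 to 0.09). Kcnh2 averaged 8.43 ± 0.09 in L26 and 8.58 ± 0.07 in wild type (SD, n = 3 each) with an adjusted p of 0.243. Kcnh3 (-0.08), Kcnh5 (-0.05) and Kcnh7 (-0.05) overlapped between the groups. Kcnh5, at 5.20 in L26 and 5.25 in wild type, lay below the lower quartile of all probe sets, 5.95, where RMA values can understate a fold change.

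Calcium- and sodium-activated channels gave no call. Kcnma1 encodes the pore of BK channels, which open on voltage and calcium together, and Kcnmb4 their brain beta subunit. Kcnma1 had 10.43, 10.56 and 10.58 in L26, against 10.61, 10.62 and 10.63 in wild type. The highest L26 array came close to the lowest wild type array (difference -0.10, adjusted p = 0.388, limma). Its 4 other probe sets had differences from -0.19 on 1424848_at to 0.22 on 1428948_at, each of these without overlap between the groups and without a call (adjusted p = 0.129 and 0.201). Kcnmb4 averaged 10.75 ± 0.02 in L26 and 10.82 ± 0.05 in wild type (adjusted p = 0.555). The SK channels, gated by calcium through calmodulin, contribute to the hyperpolarization that follows a spike. Of these Kcnn3 had 7.01, 6.88 and 6.78 in L26 and 6.94, 7.11 and 6.96 in wild type, with overlap (difference -0.11, adjusted p = 0.447). Kcnn1 (-0.11) and Kcnn2 (-0.03) overlapped as well. Kcnt1, the sodium-activated Slack channel gene, had 8.90, 8.97 and 9.00 in L26, against 9.26, 9.01 and 9.16 in wild type. The lowest wild type array was nearly at the level of the highest L26 array, and the difference of -0.19 did not pass (adjusted p = 0.177).

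None of the 3 K2P leak channel genes passed. Kcnk2, a channel gated by stretch and lipids, had 10.24, 10.18 and 10.23 in L26, against 10.26, 10.31 and 10.27 in wild type. These ranges did not overlap but almost met (difference -0.06, adjusted p = 0.538, limma). Kcnk1 (-0.04) and the acid-sensitive channel gene Kcnk3 (-0.06) overlapped. Their 95% intervals were -0.15 to 0.07 for Kcnk1, -0.18 to 0.05 for Kcnk2 and -0.24 to 0.13 for Kcnk3.

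How far probe sets of 1 gene agreed was then examined over all 72 probe sets of the 34 genes. Of these 4 fell (1.94% of all 45037 probe sets) and 2 rose (1.98%), and 54 had a lower mean (44.9%). The 4 were the chosen sets of Kcnf1, Kcnv1 and Kcnc4 and Kcnv1 1453273_at, and the 2 were Kcnq5 1441071_at and Kcnh1 1418414_at. At probe set level the Kcnc4 call was lost when any array other than wild type replicate 3 was left out (adjusted p = 0.0508 to 0.08, limma). Among the 38 probe sets that were not the brightest of their gene, 23 had a lower and 15 a higher mean in L26. Of the 22 genes with several probe sets, 11 had a lower mean on all of them (50.0%), as did 20.3% of all 9010 genes with several probe sets. Whether a probe set differed from the brightest one of its gene was tested on the difference between them within each array, fitted with limma over all 16752 such pairs, a test added after the values had been seen. Unequal differences were called for 2 of the 38 pairs of these genes, where 2.70% of all pairs were called. The Kcnh1 pair differed by 0.47 (SE 0.08, adjusted p = 0.015) and the Kcnq5 pair by 0.74 (SE 0.15, adjusted p = 0.0318), both with the dimmer set higher in L26. The pairs of Kcnv1 1429741_at (0.35, adjusted p = 0.0506), Kcnf1 1441300_at (0.35, adjusted p = 0.0582), Kcnc4 1425089_at (0.27, adjusted p = 0.0811) and Kcnma1 1428948_at (0.32, adjusted p = 0.0986) did not pass. Which transcript forms these probe sets read was not examined here.

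**Figure D3:**
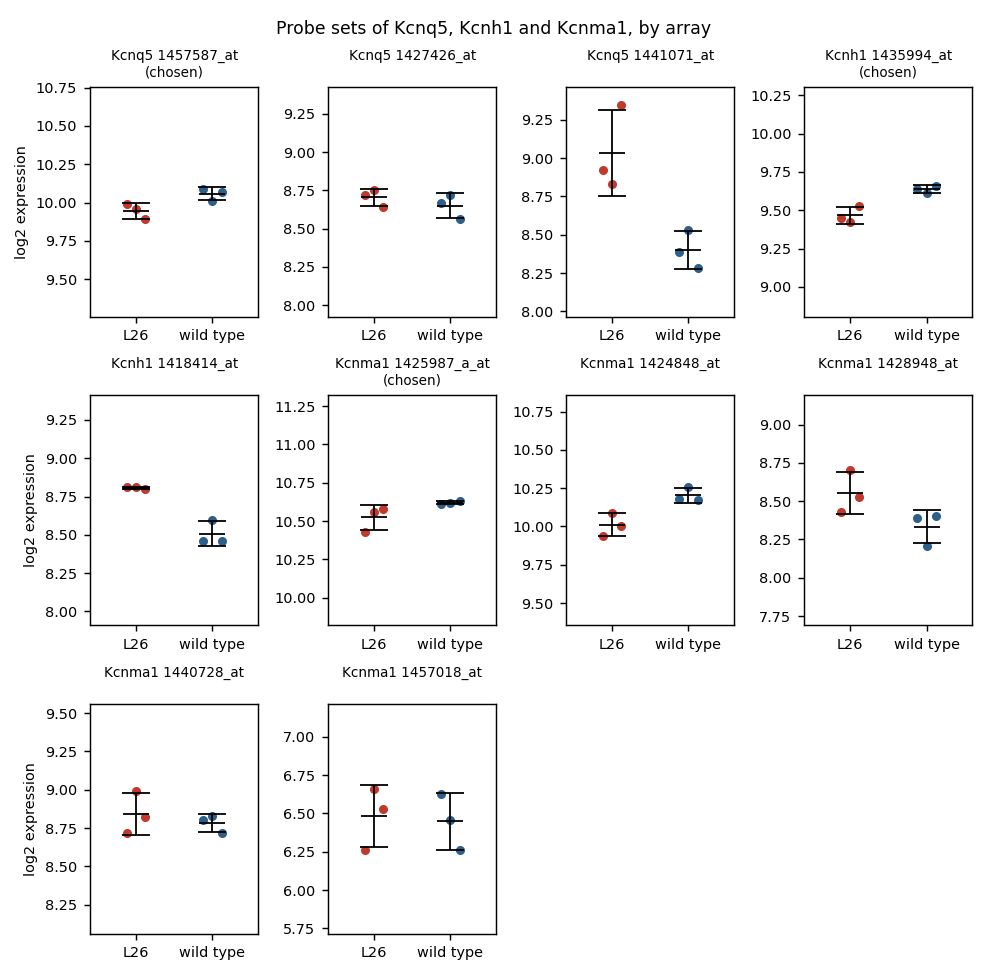
Log2 expression (y axis, a span of 1.5 units in every panel) by array for every probe set of Kcnq5, Kcnh1 and Kcnma1, L26 left and wild type right. Points are arrays and horizontal marks are means with SD bars (n = 3); the L26 arrays lie above the wild type arrays on Kcnq5 1441071_at and Kcnh1 1418414_at and below them on the chosen probe sets of both genes.

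Other channel genes were read from the same fit. Of 20 further Kv, KCa and K2P genes 0 passed, 9 had a lower mean and the median difference was 0.03; Kcng4, with the smallest p, had 0.14 (adjusted p = 0.237, limma). The mean of these 20 was 6.93 to 6.97 on the L26 arrays and 6.91 to 6.96 on the wild type arrays. Of 9 genes of Kv4 channels and partners 2 fell, the auxiliary subunit gene Dpp10 by 0.74 and Kcnip4 by 0.44. Of 15 inward rectifier genes 2 fell, Kcnj9, a G protein-gated channel gene, by 1.34 and Kcnj4 by 0.32. Among 4 Kcne genes Kcne2 fell by 1.73, to a mean of 5.43 in L26, below the lower quartile of all probe sets, 5.95. Kcne2 is also the 1 gene counted above as a fall among the choroid plexus and ependyma markers. So the lowest differences among potassium channel genes lay outside the 34, which had none below -0.52.

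None of 19 genes for scaffolds and partners of Kv channels passed, and 14 had a lower mean. Vapb, whose product clusters Kv2 channels at contacts with the endoplasmic reticulum, had the smallest p (difference -0.28, adjusted p = 0.0987), and Cntnap2, which gathers Kv1 channels beside the node of Ranvier, had -0.15 (adjusted p = 0.155). Of 9 sodium and HCN channel genes Scn1a fell by 0.31 (adjusted p = 0.033) and 8 did not pass. Of 7 genes for pores of voltage-gated calcium channels 0 passed and the median difference was 0.03; Cacna1h had 0.08 (adjusted p = 0.467). Set beside the median of -0.09 for the 34 genes, the medians were -0.07 for Kv4 channels and partners, -0.03 for inward rectifiers, -0.06 for Kcne subunits, -0.05 for scaffolds and partners and -0.04 for sodium and HCN channels.

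**Figure D4:**
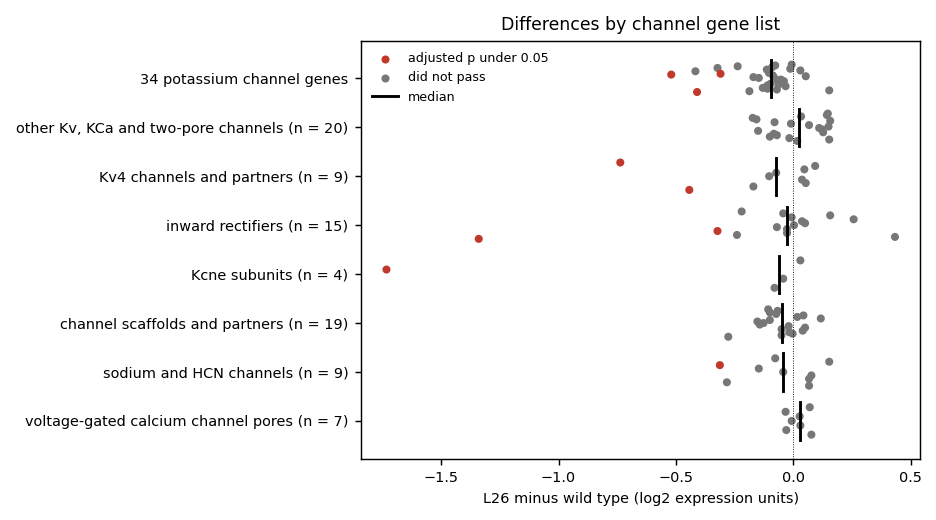
Difference between L26 and wild type (x axis, log2 expression units) of every gene in the 34 genes (top row) and in 7 other channel lists; points are genes, red ones passed the adjusted p threshold of 0.05, and black bars are list medians. Most of the 34 lie left of 0 within a narrow range, while Kcne2 and Kcnj9 stand far to the left of their own lists.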

How the data were processed

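The deposited values are log2 signals made by the authors with RMA and affy, per the submitters' processing notes; no versions are stated there. RMA generally corrects background, quantile-normalizes across arrays and summarises probes by median polish, so the values carry no detection calls. Of 45101 probe sets, 64 controls were left out and 45037 tested without a filter. The platform annotation gave 34945 of them 1 gene symbol, 932 several and 9160 none, and only the first kind was named. For arrays the number of samples limits precision: standard errors of the 34 genes ran from 0.05 to 0.12.

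L26 was compared with wild type with limma 3.58.1 under R 4.3.3 (moderated linear model, two-sided, no covariate), with Benjamini-Hochberg adjustment over genes or, where said, over probe sets. Values after ± are SDs over 3 arrays, and SE is the standard error from limma. The fit was also run on simulated data, with genes drawn independently. The planted differences were larger than most of those reported here, so smaller ones were not covered. Per-array values are given for genes past the threshold, for the smallest p in each subfamily and for genes with another probe set past it; from other lists up to 4 called genes are named, or the smallest p. Cntnap2, Rbfox3 and Neurod6 fall outside this and, like Pvalb and Reln, were chosen after their values were seen. Kcnip3 and the array values of Kcna4 1438613_at also fall outside it. The genes and lists were chosen with earlier results of these data known. Alternatives were a replicate block, each array left out, repeated quantile normalization, median centring, array weights, a robust prior with an intensity trend, leaving out the dimmest 40% of probe sets or those ending in _x_at or _s_at, averaging the probe sets of a gene and a threshold of 0.1.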

Additional observations from a re-analysis of the deposited data

How the results depend on the processing

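Kcnf1 and Kcnv1 passed under all 15 alternatives, with differences of -0.60 to -0.35 and -0.44 to -0.29. Kcnc4 missed the threshold in 5 of them: with the replicate block (adjusted p = 0.0553), without L26 replicate 1 or 2, without probe sets ending in _x_at or _s_at and with the mean of all probe sets (adjusted p = 0.0988). The count of channel genes that fell was 2 to 3 with an array left out and 5 with the intensity trend or the 0.1 threshold, which added Kcna5 and Kcnab3; the block added both too and gave 4. No channel gene rose under any alternative. Their median difference became -0.123 with arrays centred on their medians (median of all genes -0.02, against 0.01) and -0.063 with the mean of all probe sets; without 1 array it was -0.107 to -0.087.

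Over all genes, those lower and higher numbered 690 and 382 with centred arrays, 816 and 918 at the 0.1 threshold, and 221 to 376 and 180 to 358 without 1 array, against 467 and 478. The trend gave 701 lower. With the replicate block 301 were higher and 0 channel probe sets rose (adjusted p = 0.0608 for Kcnq5 1441071_at and 0.0551 for Kcnh1 1418414_at); deviations of same-numbered arrays correlated at -0.04, -0.07 and 0.15, so the numbers were not taken to pair the samples. Channel probe sets that fell numbered 2 to 4, and those that rose 0 to 2, without 1 array.

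Of 508 differences of single channel genes under the alternatives, 483 kept direction and call and 14 changed sign, all without a call on either side. With 1 array left out the ranges that crossed 0 were -0.022 to 0.008 for Kcna1, -0.177 to 0.002 for Kcna4, -0.048 to 0.010 for Kcna6, -0.173 to 0.022 for Kcns1, -0.088 to 0.007 for Kcnh5, -0.122 to 0.063 for Kcnh7 and -0.127 to 0.008 for Kcnk3. Repeated quantile normalization gave Kcna1 0.001. The mean of all probe sets gave Kcna6 0.087, Kcnh1 0.065, Kcnma1 0.005 and Kcnq5 0.192. The cause of these changes was not tested, apart from the probe set differences given above.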
